A study of Mus musculus with 4 samples.

Results

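Clock and clock-output genes were examined in a stable line of NIH3T3 cells, an immortalised mouse fibroblast line, that carries a wild-type PKR gene under a promoter repressed by tetracycline. PKR, encoded by Eif2ak2, is a kinase that binds double-stranded RNA and phosphorylates the initiation factor eIF2 alpha. The set was Per1, Cry1, Noct, Clock and Bhlhe40, 5 of the 6137 genes named on the arrays. All 10 probe sets annotated with only 1 of these symbols were taken, 9 on the first array type and 1 on the second, which the sample titles mark MB. The genes were chosen by their place in the clock and with their changes in this same comparison in view. Their differences are therefore descriptions and carry no test.

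The silent state was 1 line kept in DMEM with 5% fetal calf serum and tetracycline at 1 µg/ml. The induced state was that line after 5 h without tetracycline. The labels give no serum content for the withdrawn cultures and no time of harvest for either state. All cells carry the transgene, its species is not given, and whether the line is a single clone is not stated. Each state has 1 array of each type, with different probe sets on the 2 types, so there are 4 arrays and no replicates. PKR induction, loss of tetracycline and any change of medium fall on the same arrays and cannot be told apart. In such bulk RNA, fewer cells expressing a gene and less RNA per cell cannot be told apart either.

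The circadian clock of mammalian cells is a transcriptional feedback loop. CLOCK and its partner BMAL1 bind E-box sequences and switch on the Per and Cry genes, and the PER and CRY proteins return to the nucleus and repress CLOCK and BMAL1. Bhlhe40 encodes DEC1, a repressor that also binds E-boxes. Noct encodes nocturnin, a rhythmic output protein related to mRNA deadenylases. Fibroblast clocks, those of NIH3T3 included, can be reset by a pulse of serum. Per1 and Noct are both known to respond to serum as immediate early genes, Per1 in part through a cAMP response element (CRE) bound by CREB.

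The letters before the transcription starts of the 3 genes that were higher after withdrawal are shown here because clock and serum signals are known to act through such sites. The windows are RefSeq sequences of GRCm38.p6 and hold the 250 bases before an annotated start, on the gene's strand. Per1 has 2 annotated starts, with windows at chr11:69098699-69098948 and chr11:69099902-69100151 on the plus strand. Those of Cry1, chr10:85185055-85185304 on the minus strand, and Noct, chr3:51224197-51224446 on the plus strand, have 1 each. Capitals mark letters found by searching both strands for the E-box CACGTG, the related E'-box CACGTT, the full CRE TGACGTCA, its half-site TGACG, the D-box forms TTATGCAA and TTATGTAA, and the serum-responsive CArG box. A full CRE also holds 2 overlapping half-sites. These motifs were chosen with the sequences in view.
Per1 first start: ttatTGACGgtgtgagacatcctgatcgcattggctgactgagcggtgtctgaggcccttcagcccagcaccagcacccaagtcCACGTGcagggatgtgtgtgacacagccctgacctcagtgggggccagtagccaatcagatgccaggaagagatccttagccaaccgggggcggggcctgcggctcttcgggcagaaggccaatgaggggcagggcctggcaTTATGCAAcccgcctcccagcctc
Per1 second start: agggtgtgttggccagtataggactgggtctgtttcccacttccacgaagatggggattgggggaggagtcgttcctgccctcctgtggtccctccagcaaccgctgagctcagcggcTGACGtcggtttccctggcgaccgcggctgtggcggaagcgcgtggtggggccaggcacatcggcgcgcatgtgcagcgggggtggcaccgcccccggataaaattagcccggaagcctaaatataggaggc
Cry1: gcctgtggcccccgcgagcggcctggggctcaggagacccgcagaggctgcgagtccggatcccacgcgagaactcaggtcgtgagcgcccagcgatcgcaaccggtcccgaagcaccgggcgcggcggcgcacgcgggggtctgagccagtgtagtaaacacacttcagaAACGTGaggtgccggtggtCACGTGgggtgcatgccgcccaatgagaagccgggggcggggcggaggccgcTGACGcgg
Noct: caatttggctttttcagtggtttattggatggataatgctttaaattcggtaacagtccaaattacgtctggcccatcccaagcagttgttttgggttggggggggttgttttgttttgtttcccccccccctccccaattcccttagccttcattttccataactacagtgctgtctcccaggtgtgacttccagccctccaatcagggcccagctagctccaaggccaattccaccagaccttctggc

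The first Per1 window held an E-box 166 to 161 bases before the start, a D-box TTATGCAA 24 to 17 bases before it, and a CRE half-site near its far end. The second Per1 window held a CRE half-site 132 to 128 bases before its start. The Cry1 window held an E-box 60 to 55 bases before the start, an E'-box at 79 to 74 bases and a CRE half-site at 8 to 4 bases. None of the searched letters was found in the Noct window or in the 3 Clock windows. Of all 32851 promoter windows of this length, 6.02% held the E-box, 3.85% the E'-box, 1.55% the full CRE, 17.8% the half-site, 0.694% TTATGCAA, 0.819% TTATGTAA and 1.47% a CArG box. A match is a description of letters, and binding at these sites was not measured here.

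Per1, Cry1 and Noct were higher after withdrawal, whereas Clock and the bright Bhlhe40 probe set stayed close to their level with tetracycline. The values are the intensities of the deposited tables, in arbitrary units and comparable only within a probe set. A change is given as the log2 ratio of both intensities, withdrawn over tetracycline. A probe set counts as measured when both arrays exceed a floor, set at the 25th percentile of the values of its array type. That floor was 129.7 for the first type and 80.0 for MB. A stricter control floor is the 95th percentile of 39 bacterial and yeast control probe sets (281.5 and 340.4). Of the 10 probe sets 8 were measured, 5 of them at least 2-fold higher and 0 at least 2-fold lower. Of all measured probe sets, 4.36% were at least 2-fold higher and 4.02% at least 2-fold lower on the first type, and 8.46% and 6.65% on MB. Above the control floor 3 of 6 probe sets were at least 2-fold higher, against 1.88% of all on the first type and 1.97% on MB. Counted as genes, 3 of 5 were at least 2-fold higher, against 5.26% of all measured genes, and 2 of 4 at the control floor, against 2.07%. The same contrast chose the genes, so nothing is read from these counts.

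**Figure D1:**
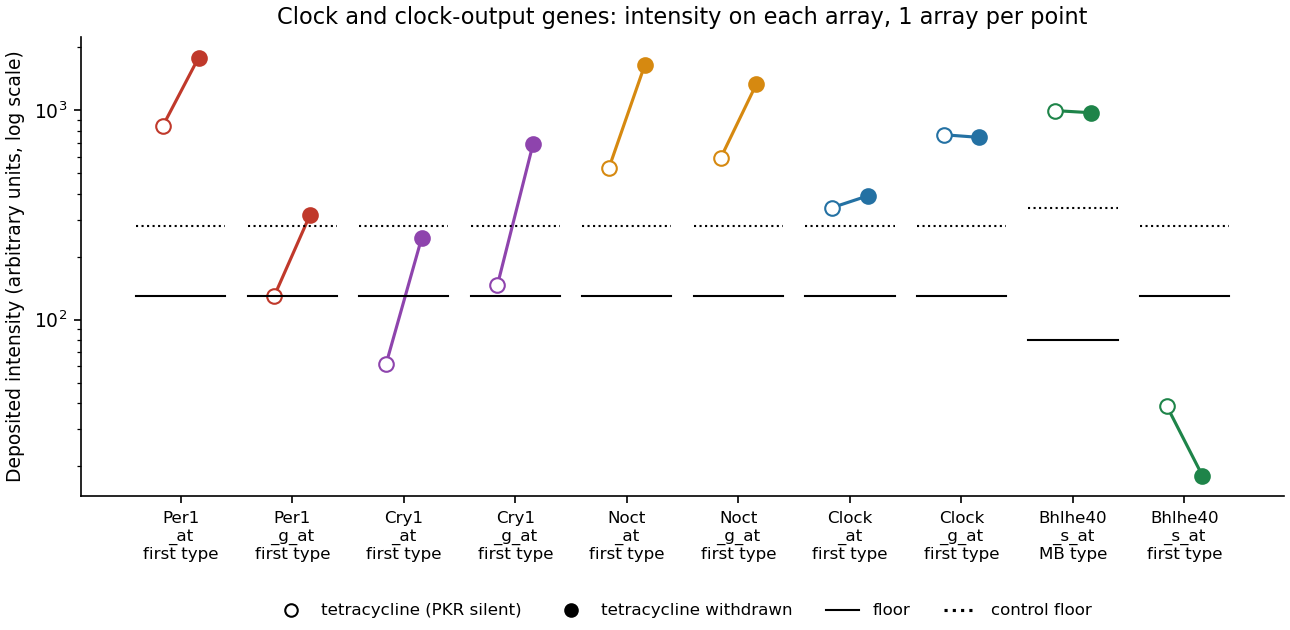
Deposited intensity (log axis, arbitrary units) of the 10 probe sets with tetracycline (open) and after withdrawal (filled), 1 array per point, with no error bars because there are no replicates. Solid lines are the floor and dotted lines the control floor of the array type. Both probe sets of Per1, Cry1 and Noct lie higher after withdrawal, and of these 6 probe sets Per1 _at and both of Noct clear the control floor on both arrays.

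Per1 encodes a core repressor of the loop. Its brighter probe set, named with the suffix _at, read 844.4 with tetracycline and 1788.6 after withdrawal, a log2 change of 1.08. The 200 probe sets most similar in level had changes with a robust SD of 0.38, from the median absolute deviation. Such neighbours were drawn from all probe sets of the array type except controls, measured or not. Of those 200, 3 were higher by as much or more. The members were chosen with these changes in view, so neighbour counts here and below are descriptions. The spread mixes probe noise with real differences and stands in for no replicate error. The second probe set, _g_at, read 130.3 and 317.4, a log2 change of 1.28. Its tetracycline value lay barely above the floor, where the spread was 1.41 and 35 of the 200 neighbours changed as much. The Per1 result therefore rests mainly on its _at probe set.

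Noct, the output gene, had both probe sets above the control floor on both arrays, unlike Per1 and Cry1. Its _at probe set read 532.3 with tetracycline and 1645 after withdrawal, which is 3.09-fold higher. The spread at this level was 0.47 against a log2 change of 1.63, and 0 of the 200 nearest probe sets were higher by as much. Its _g_at probe set read 590.8 and 1332.3, which is 2.26-fold higher, with a spread of 0.43 and 3 neighbours as high. Noct was chosen with this change in view, so these neighbour counts only describe it.

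Cry1 encodes a strong repressor of CLOCK and BMAL1 in the loop. Its measured probe set had the largest log2 change of the 8. Its _g_at probe set read 146.7 with tetracycline and 694.3 after withdrawal, a log2 change of 2.24, placed 7 from the top among the 4402 measured probe sets of the first type. The spread there was 0.75, and 2 of the 200 neighbours were higher by as much. Its _at probe set read 61.1 and 245.4, so it was under the floor with tetracycline. Against the floor it was at least 1.89-fold higher. Both _at values lay under the control floor, at a level where the spread was 1.93 and 27 of the 200 neighbours were higher by as much. The _g_at probe set exceeded the control floor only after withdrawal.

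Clock, the activator of the loop, and Bhlhe40 showed no difference of that size. The _at probe set of Clock read 343.2 and 390.8, a log2 change of 0.19 beside a spread of 0.80. Its _g_at probe set read 765.9 and 743.6, a log2 change of -0.043 beside a spread of 0.44. All 4 Clock intensities exceeded the control floor. Bhlhe40 on the MB type read 998.6 and 975.7, a log2 change of -0.033 beside a spread of 0.42. Its probe set on the first type read 38.8 and 18, under the floor on both arrays, and gives no change. With 1 array per state, a moderate difference in Clock or Bhlhe40 was not detectable.

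**Figure D2:**
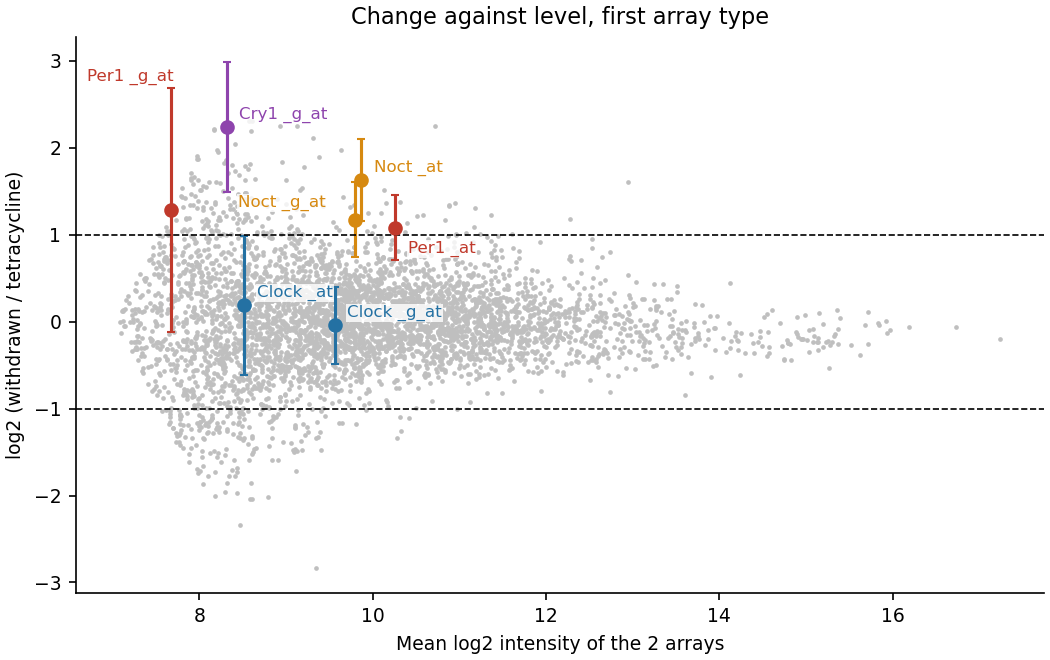
The log2 change (withdrawn over tetracycline) of the 4402 measured probe sets of the first array type against their mean log2 intensity. Coloured points are the measured clock probe sets, and dashed lines mark 2-fold. Error bars are the robust SD of the changes among the 200 most similar in level of all 6523 probe sets, unmeasured ones included. The Noct points and Per1 _at stand at levels where few probe sets pass 2-fold, while Per1 _g_at stands where many do.

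The arrays carry many pairs of probe sets, _at and _g_at, built on the same sequence record, which gives a measure of how well a change repeats between probe sets. These pairs share arrays and RNA, so they repeat the probe and not the experiment. On the first type 235 pairs had both probe sets measured. The changes of a pair differed by a median of 0.35 on the log2 scale and had the same sign in 60.0% of pairs. The differences within Per1 (0.20) and Clock (0.23) were below that median and that within Noct (0.45) was above it. At least 1 probe set was 2-fold higher in 15 pairs, and both were in 2 pairs (0.851%), those of Per1 and Noct. This again describes the contrast on which the genes were chosen. On the MB type 2 of 63 pairs (3.17%) passed in the same way, those of Nfkbia, an inhibitor of NF-kB, and Pvr. The count for the first type fell to 1, Noct alone, with quantile, median ratio or loess scaling, at a floor 2 times as high and at the control floor. Under each of these Per1 _g_at dropped below the floor with tetracycline, while Per1 _at stayed at least 2-fold higher under the scalings. These alternatives for pairs were chosen after the data were examined.

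**Figure D3:**
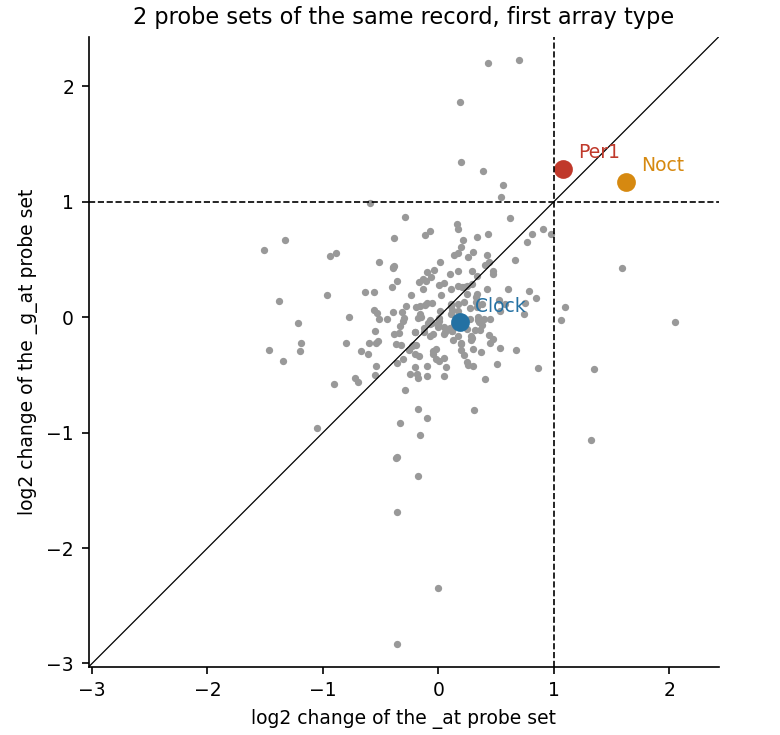
The log2 change of the _at (x axis) and _g_at (y axis) probe set of the same record for the 235 pairs measured on the first array type. The solid line marks equal changes and dashed lines mark 2-fold higher. Per1 and Noct are the 2 pairs in the upper right field, and Clock lies near 0.

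Other parts of the clock were sparsely covered. Of 14 further core clock genes, 4 had a named probe set and 1 was measured, Timeless, at 1291.5 and 1108.4 (log2 change -0.22). Npas2, the paralogue of Clock, and the repressor gene Nr1d2 were under the floor on both arrays. Rora, an activator in the second loop of the clock, read 48.3 with tetracycline and 262.2 after withdrawal on the MB type, at least 3.28-fold higher against the floor but under the control floor on both arrays. Per2, Cry2 and Arntl, which encodes BMAL1, were among the 14 but had no probe set annotated with only 1 symbol, so they have no values here.

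Genes for clock protein modifiers, enzymes and partner proteins together, showed no common direction. Of 15 measured, 7 were higher and 8 lower, with a median log2 change of -0.029. The median was -0.0037 over all 4507 measured genes, of which 49.6% were higher, 5.26% at least 2-fold higher and 4.22% at least 2-fold lower. Gsk3a, from a kinase family that phosphorylates clock proteins, was the only member past 2-fold (1.23, from 340.2 to 799.2, the first value just under the control floor). The casein kinase Csnk1d, which marks PER proteins for degradation, read 5030 and 7108.1 (0.50). The phosphatase subunit Ppp1ca read 7475 and 5847 (-0.35).

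Clock output genes had a higher median, 0.98 over 7 measured genes, with 5 higher, 2 of them by at least 2-fold, and 0 lower by 2-fold. Of all measured genes 49.6% were higher, 5.26% at least 2-fold higher and 4.22% at least 2-fold lower. At the control floor 1 of 5 output genes was at least 2-fold higher, against 2.07% of all. Klf10, a transcription factor under clock control that also responds to TGF-beta, read 504.1 and 2864.3 (2.51). Wee1, the mitotic inhibitor kinase whose promoter carries E-boxes, gave 1.20 on its measured probe set, from 242.8, under the control floor, to 555.9. Nfil3, the D-box repressor E4BP4, read 777.1 and 1530.3 (0.98), and the haem synthesis gene Alas1 read 555.9 and 1093.1 (0.98). Cdkn1a, the cell cycle inhibitor p21, gave 0.10 and 0.41 on its 2 probe sets. Nampt, the enzyme of NAD salvage, read 712.8 and 492.1 (-0.53), and Dbp, a direct CLOCK target, was under the floor on both arrays (52.2 and 53.7).

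Since Per1 and Noct are known to respond to serum, they were set beside genes switched on by serum in fibroblasts. This list, like the other lists, was chosen with earlier results of these data known, so its counts are descriptions. Of 35 measured serum-response genes, 30 were higher, against 49.6% of all measured genes. At least 2-fold higher were 8, against 5.26% of all, and at least 2-fold lower were 0, against 4.22%. At the control floor 6 of 31 were at least 2-fold higher, against 2.07% of all. The list median was 0.55. The gene value of Per1, the median of its probe sets, was 1.18 and exceeded that of 30 of the 35. Noct, at 1.40, exceeded 32, with Junb, Klf2 and Klf4 above it. Cry1, at 2.24, exceeded all 35 measured, and Clock, at 0.072, exceeded 5. Egr2, an early growth response factor outside these 35, read 45.4, under the floor, and 413.1. Against the MB floor Egr2 was at least 5.16-fold higher, and only its value after withdrawal exceeded the control floor. This bound is not comparable with the Cry1 change, a ratio of 2 intensities on the first array type.

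Within that list the AP-1 subunit gene Junb read 665.3 and 1903.8 (1.52) and the early growth response factor Egr1 read 1475.5 and 3665 (1.31). The Krüppel-like factor Klf4 read 492.1 and 1332.1 (1.44), and Klf2 135.6, under the control floor, and 419.4 (1.63). Ier2 (0.74) and the nuclear receptor gene Nr4a1 (0.80), both immediate early genes, were higher by less than 2-fold. Fos, the classical serum-induced gene, was near background, with 34.8 and 202.5 on 1 probe set and 31.8 and 67.7 on the other. Against the floor the first was at least 2.53-fold higher, but all 4 values lay under the control floor.

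Several other genes of the serum-response list were near their level with tetracycline at 5 h, the only time sampled. An earlier, passing change in them would not have been seen. The MAP kinase phosphatase gene Dusp1 read 2604.8 and 2825 (0.12), the matrix gene Ccn2 read 9771.9 and 9630.1 (-0.021), and Ier3 read 14001.8 and 14841.1 (0.084). Crem, a CREB target that encodes the repressor ICER, was not measured and is not counted among these. It read 127.9, under the floor, and 185.7, at least 1.43-fold higher against the floor. Both Crem values lay under the control floor. Changes in the list ranged from -0.88 to 1.63, and the values of Per1 and Noct lay in the upper part of that range.

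**Figure D4:**
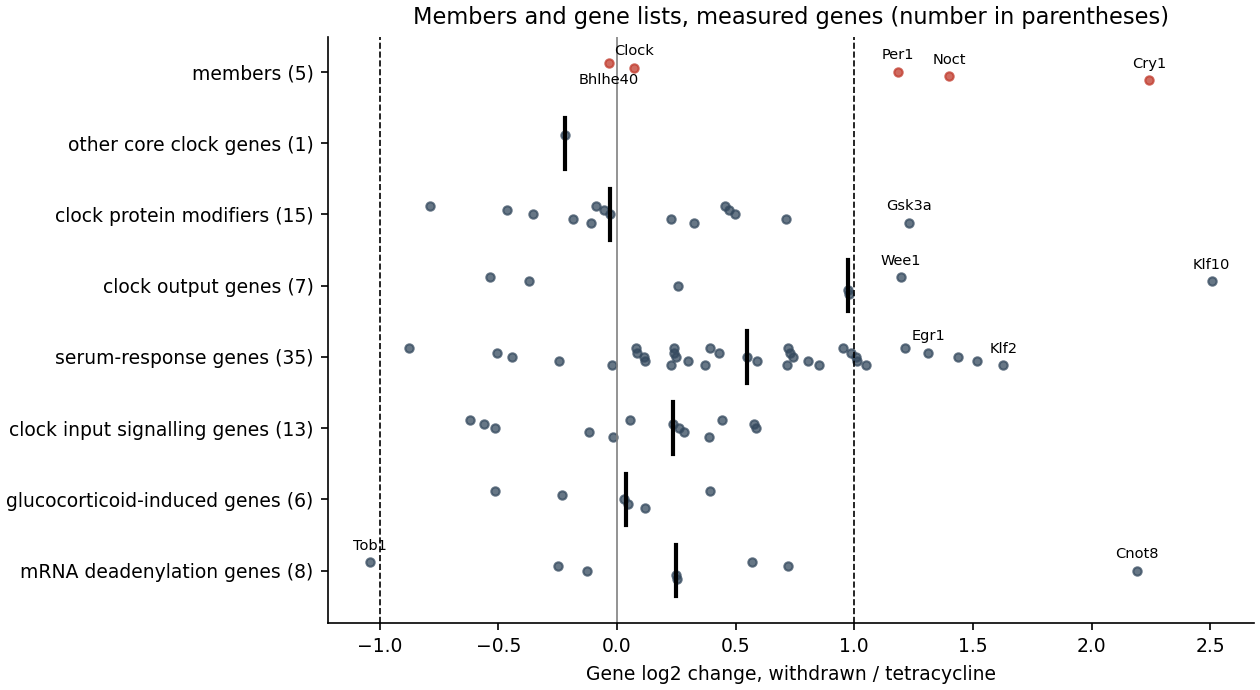
Gene log2 change (median over measured probe sets of both array types) for the 5 clock and output genes (red) and the measured genes of 7 lists (dark points, number in parentheses). Thick bars are list medians and dashed lines mark 2-fold. Clock output and serum-response genes have medians of 0.98 and 0.55, and the other lists lie closer to 0.

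Other inputs to the clock were compared in the same way, beside all measured genes. Among those, 49.6% were higher, 5.26% at least 2-fold higher and 4.22% at least 2-fold lower. The 13 measured genes of clock input signalling (CREB, MAP kinase, ternary complex factors, protein kinase A and the glucocorticoid receptor) had a median of 0.24, with 8 higher and 0 past 2-fold. Prkar1a, a regulatory subunit of protein kinase A, read 3410.8 and 4633.6 (0.44), and the MAP kinase kinase Map2k2 read 6253.8 and 5761.7 (-0.12). Glucocorticoids also induce Per1 and reset fibroblast clocks. Of 6 measured genes that they induce, 4 were higher, 0 passed 2-fold, and the median was 0.039. Dusp1 and Errfi1, among these 6, are also in the serum-response list. The metallothionein Mt2 read 11535.8 and 8087.8 (-0.51), and Mt1 gave 0.36 and -0.30 on its 2 probe sets. Genes of mRNA deadenylation, the class to which Noct is related by sequence, had a median of 0.25 over 8 measured genes. Cnot8, a catalytic subunit, was higher (2.19, from 129.2, under the control floor, to 590.5). Tob1, which recruits the deadenylase complex, was lower (-1.04 over 2 probe sets, each under the control floor on at least 1 array). The antiproliferative genes Btg1 (0.25) and Btg2 (0.72) were higher by less than 2-fold. Btg2 is also in the serum-response list.

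The genes whose 2 log2 intensities lay nearest to those of a member on the same arrays were named by a fixed rule. For Per1 _at these were Bcl10, Spsb2 and Lrp6, at Euclidean distances of 0.010, 0.12 and 0.15. For Noct _at they were Mettl17, Herpud1 and Tanc1, at 0.24 to 0.29, and for Cry1 _g_at Cant1, Zbtb45 and H2-Aa, at 0.018 to 0.22. For Clock _g_at they were Sdhaf1, Phf1 and Pfkfb3, at 0.018 to 0.034, and for Bhlhe40 Col9a2, Nek2 and Vps4a, at 0.016 to 0.061. Likeness over 2 arrays says little, and the 3 genes nearest to Noct were farther from it than those of any other member.

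The 2% trimmed mean of the 4 arrays lay between 996.6 and 1000.4, as in values scaled to a common target before deposit, so it does not compare the arrays. The median intensity was 454.4 with tetracycline and 440.9 after withdrawal on the first type, and 294.1 and 319.8 on MB. The ratio of 3' to 5' control probe sets lay between 0.71 and 1.05. The Eif2ak2 probe set read 643.3 and 663.6, but it may not detect the transgene and so checks no label. Of 10 fibroblast markers all were measured above the control floor, 8 of them lower after withdrawal and 0 past 2-fold, with Col1a1 at -0.36 and Col1a2 at -0.41. Of all 4507 measured genes, 2270 were lower. The summed intensity of the fibroblast markers went from 71721 to 60302 over 6 probe sets of the first type and from 190733 to 155133 over 11 of MB. Such sums are weighted towards the brightest probe sets and do not describe the 10 genes evenly.

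Markers of other cell types were counted at the same floor as the lists above. There, 49.6% of all measured genes were higher, 5.26% at least 2-fold higher and 4.22% at least 2-fold lower. Of 6 measured macrophage or leukocyte markers 5 were higher, 2 of them past 2-fold, Coro1a (1.20) and Fcgr3 (1.07), and the median was 0.52. The brightest in that list were Cd14 (0.088) and Laptm5 (0.67). Of 7 lymphocyte markers 4 were lower, 3 of them past 2-fold, Ighm (-1.38), Cd3g (-1.33) and Cd79b (-1.13), beside Ms4a1 (-0.22) and Cd3e (0.24). Of 8 muscle markers 6 were lower, with Tnnt2 (1.20) and Chrna1 (-1.14) past 2-fold, beside Ckm (0.23) and Myod1 (-0.0071). Epithelial markers had 2 measured genes, Krt14 (1.15) and Krt8 (-0.42), endothelial markers also 2, Tie1 (-2.16) and Kdr (0.48), and adipocyte markers 1, Adipoq (-0.54). Above the control floor 4 of the 10 macrophage or leukocyte genes on the arrays were left, as were 2 of 8 lymphocyte, 3 of 9 muscle, 1 of 5 epithelial, 0 of 5 endothelial and 1 of 3 adipocyte genes. Of these 0 passed 2-fold, while of all 3582 genes above that floor 74 were at least 2-fold higher and 43 lower. The macrophage or leukocyte median was 0.23. The part of these markers in the clock gene values was not tested.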

How the data were processed

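Each probe set has 1 linear intensity per array in the deposited tables, and all are above 0. How the authors made these values from the scans is not stated in the labels or tables. No further scaling was applied to them. Control probe sets (61 per array type) were left out, which gave 6523 and 6534 probe sets on the first type and MB. Gene symbols are those of the platform annotation, brought up to date by Entrez identifier with the GRCm38.p6 RefSeq table. Of the probe sets, 5541 and 2001 had 1 symbol, 197 and 27 several, and 785 and 4506 none. Probe sets with several symbols were not named. Promoter windows matched 4 of the 5 genes, all but Bhlhe40.

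The value of a gene is the median of its measured probe sets. Log2 changes have no pseudocount, and with 1 array per state no p-value was computed. The number of arrays limits the precision. Named in each list were up to 4 genes past 2-fold and the 2 with the brightest probe sets, and, by rule, Fos, Egr1, Junb, Ier2, Dusp1, Crem, Nr4a1 and Klf10. For each member the 3 nearest genes were named. The genes named beyond this rule (Nfil3, Alas1, Nampt, Dbp, Egr2, Rora, Npas2, Nr1d2, Nfkbia and Pvr) were chosen after their values were seen. The members and gene lists were chosen with earlier results of these data known. Counting, scaling and the spread were tested on simulated arrays with known changes. The simulated noise was the same at every level, and the changes exceeded 2-fold and were placed in brighter probe sets. Changes near 2-fold or near the floor were not simulated, and gene values were not part of the check. Values were computed in Python 3.11.15 (pandas 2.3.3, statsmodels 0.14.6 for loess, numpy 2.4.6, scipy 1.17.1) and drawn with matplotlib 3.10.9.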

Additional observations from a re-analysis of the deposited data

How the results depend on the processing

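The alternatives were 4 scalings (quantile, loess over a span of 0.4, median ratio and 2% trimmed mean), floors 0.5 and 2 times as high, the control floor, limits of 1.5-fold and 3-fold, a pseudocount equal to the floor and the brightest probe set per gene. Over the scalings, the pseudocount and the brightest probe set, the log2 change lay between 0.88 and 1.18 for Per1, 1.22 and 1.63 for Noct, 1.58 and 2.31 for Cry1, -0.043 and 0.12 for Clock, and -0.11 and -0.031 for Bhlhe40. Of these only the pseudocount took Per1 below 2-fold (0.88). Floors and limits were tried on counts and list medians, not on these changes. The count of 3 genes at least 2-fold higher was 2 at a floor 2 times as high and at the control floor, where Cry1 was no longer measured, and 1 (Cry1) at 3-fold. List medians moved by more than 0.1 in these cases. At 0.5 of the floor the other core clock genes reached 1.11, because Rora joined Timeless. The clock protein modifiers gave 0.10 at 0.5 and at 2 times the floor, where the genes tested differ. Clock input genes gave 0.13 with quantile and with loess scaling, whose cause was not tested. Glucocorticoid-induced genes gave -0.092 with the brightest probe set per gene. The medians of the clock output, serum-response and deadenylation lists moved by less than 0.1 under every alternative run. No paired analysis was possible because each state has 1 array of each type.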

Other observations

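Genes were also grouped by the searched promoter letters, whatever their function. Of 3618 measured genes with a promoter window, 5.28% were at least 2-fold higher after withdrawal, with a median log2 change of -0.011. Of 398 genes with an E-box CACGTG in any window, 5.03% were, with a median of -0.039. Of 179 genes with the E'-box, 5.59% were, with a median of 0.063. Of 1123 genes with the CRE half-site, 5.16% were, with a median of 0.031. Of 108 genes with the full CRE, 7 were (6.48%), with a median of 0.15. Genes with a CArG box numbered 60, of which 6 were at least 2-fold higher, with a median of -0.086. The D-box TTATGCAA stood in 24 measured genes, Per1 included, of which 4 were at least 2-fold higher, with a median of 0.0017. Of 20 genes with TTATGTAA, 1 was, with a median of 0.055. These groups were formed after the data were examined and no test was run on them.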
